A study of Mus musculus with 18 samples.

Results

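The ADAM genes followed here encode membrane proteins with a disintegrin and a metalloprotease domain. Members were all probe sets annotated to 1 of 10 named genes alone, which gave 17 probe sets of the 45037 on the array that are no control, and 15 of them passed a filter on low signal. Of the genes, 7 are ADAMs of the testis whose proteins lie on the sperm surface (Adam2, Adam3, Adam5, Adam18, Adam32, Adam1b and Adam24), and 3 are ADAMs expressed in most tissues (Adam9, Adam10 and Adam17).

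ADAM proteins are made as precursors in the endoplasmic reticulum, and a prodomain is removed on the way to the cell surface. Several testis ADAMs lack a working protease site and act in adhesion. Fertilin is a dimer of an ADAM1 and an ADAM2 chain, and mouse sperm without ADAM2 or ADAM3 neither bind the egg coat well nor pass from the uterus into the oviduct. ADAM9, ADAM10 and ADAM17 are active proteases that release the outer parts of other membrane proteins, such as Notch receptors, growth factors and tumour necrosis factor.

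Whole-testis RNA was measured on 18 Affymetrix mouse arrays. The groups were repro9/repro9 mutants at 17 days post partum (dpp, n = 5), wild type at 17 dpp (n = 5), mutants at 14 dpp (n = 5) and wild type at 14 dpp (n = 3). The repro9 allele is a chemically induced mutation of Mybl1, the gene of the transcription factor A-MYB, and it is carried in every cell of the mouse, so the testis is compared as a whole. The ages were chosen for testes rich in early to mid pachytene spermatocytes (14 dpp) and in late pachytene and diplotene ones (17 dpp), and spermatids are not yet a normal part of the tissue at either.

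Arrays fell into 3 sets by their β-actin control ratio (3' probe set over 5' probe set), a measure of how complete the labelled RNA was. Set 1 had ratios of 2.31 to 2.92 and held 7 arrays (2 of mutants and 1 of wild type at 17 dpp, 2 of mutants and 2 of wild type at 14 dpp). Set 2 had ratios below 1.9 and held 4 arrays of 14 dpp (3 mutant and 1 wild type), and set 3 had ratios of 102.6 or more and held 7 arrays of 17 dpp (3 mutant and 4 wild type). Results are therefore also given within a set or with the set as a block. Mybl1 itself gave 83.4 to 293 in mutants and 1076 to 3959 in wild type at 17 dpp (log2 difference −3.46 ± 0.45, SE, limma adjusted p = 5.25e-05). At 14 dpp it gave 68.1 to 249 in mutants and 512 to 775 in wild type (−2.33 ± 0.52, adjusted p = 0.112), with no overlap of arrays at either age. The sources used here do not say where that probe set lies on the transcript, so these values do not check the labels. Markers of pachytene spermatocytes gave a summed signal of 3111 to 4501 in mutants and 47191 to 90491 in wild type at 17 dpp, so in these bulk samples fewer cells of that type and less RNA per cell cannot be told apart.

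At 17 dpp, 6 testis ADAM genes were lower in mutant testes: Adam2, Adam5, Adam32, Adam3, Adam18 and, on the probe set with its highest mean signal, Adam1b. Most mutant arrays lay near or below the level at which 40% of an array's probe sets fall, which ran from 49.2 to 93.4 over the arrays, while wild-type geometric means ran from 227 (Adam1b) to 12325 (Adam2). Adam9, Adam10 and Adam17 were not lower in mutants, and their estimates were slightly positive. At 14 dpp Adam2 alone among the members passed the test.

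**Figure D1:**
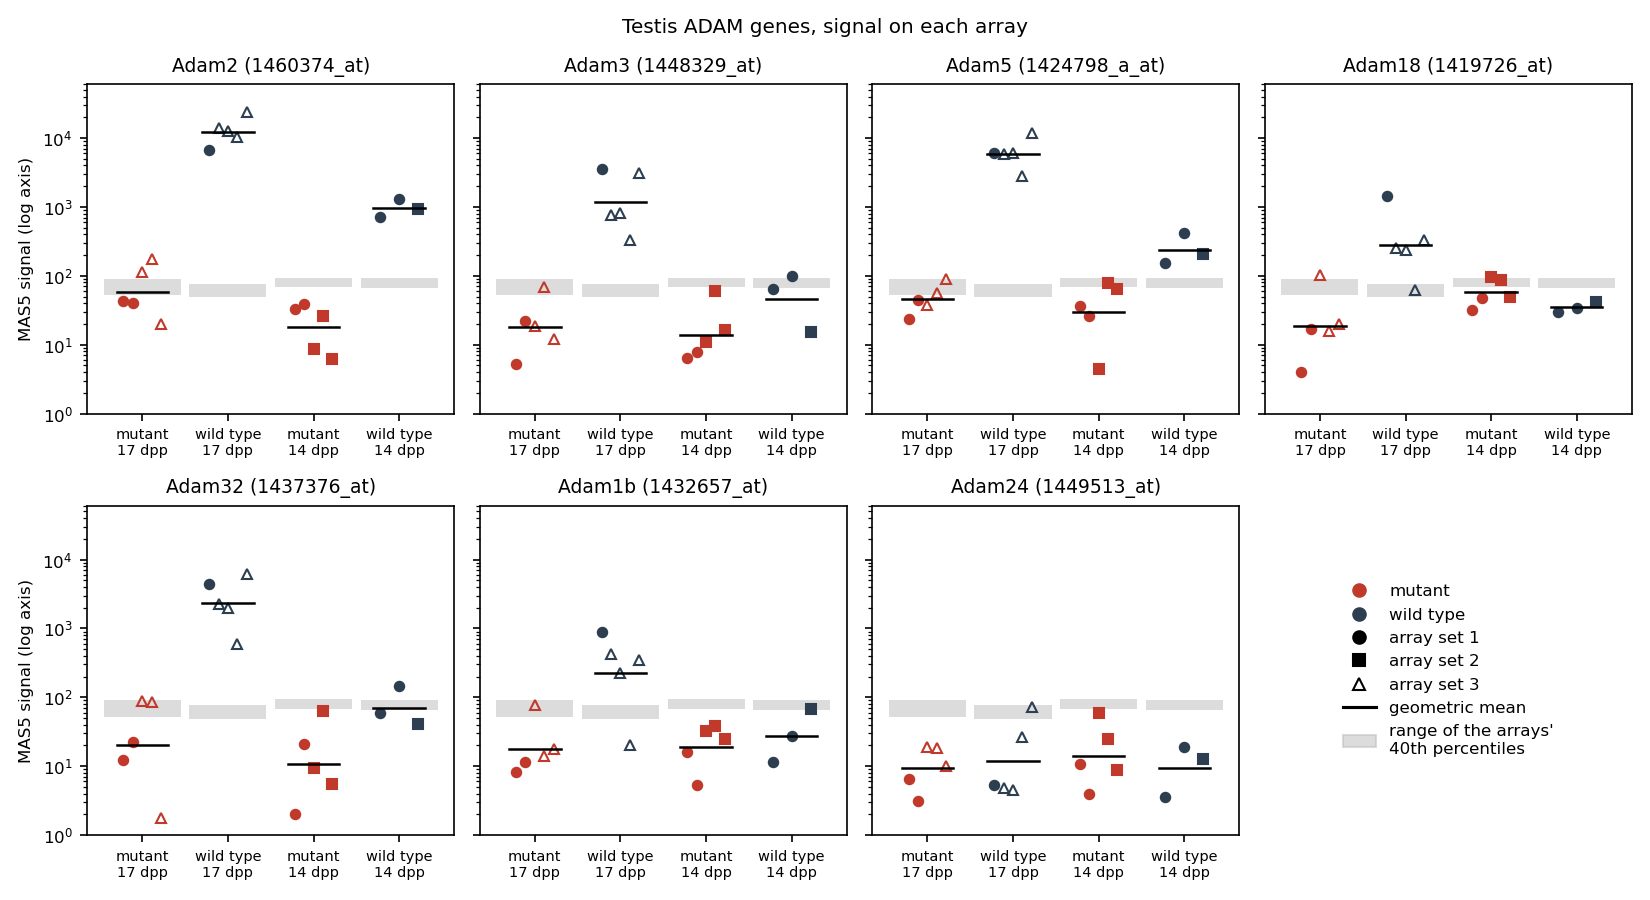
Signal of the 7 testis ADAM genes (log axis) on each array, mutants in red left of wild type in dark blue, with 17 dpp left of 14 dpp in each panel; circles, squares and open triangles are array sets 1, 2 and 3, black lines are geometric means, and the gray band is the range of the arrays' 40th percentiles. Wild-type Adam2 and Adam5 stand apart from mutants at both ages, Adam3 and Adam32 at 17 dpp, and Adam24 lies within or below the band on every array.

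Adam2, the β chain of fertilin (chromosome 14), gave signals of 42.5, 40.9, 115, 174 and 19.7 in mutants at 17 dpp, against 6651, 13799.8, 12616, 10388 and 23648 in wild type. At 14 dpp it gave 33.2, 39.4, 8.71, 26.1 and 6.15 in mutants, against 706, 1304 and 944 in wild type. Every mutant array was below every wild-type array at both ages, and mutant signals passed the 40th percentile of their own array on 2 of 5 arrays at 17 dpp. The log2 difference, mutant minus wild type, was −7.72 ± 0.59 at 17 dpp (SE, limma adjusted p = 1.48e-07) and −5.74 ± 0.68 at 14 dpp (adjusted p = 3.65e-04).

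Adam1b encodes the ADAM1 chain that pairs with ADAM2 on mouse sperm (chromosome 5). It has 3 probe sets, of which the one with the highest mean signal, 1432657_at, stands for the gene. Wild-type arrays of 17 dpp decided that choice, with a geometric mean of 227 against 20.8 for 1454317_at. In each other group 1454317_at was the brighter: 35.3 against 17.7 (mutants, 17 dpp), 58.8 against 19.2 (mutants, 14 dpp) and 68.1 against 27.6 (wild type, 14 dpp). The main probe set was thus chosen through the group in which it is high. It gave 8.24, 11.4, 76.3, 14.0 and 17.5 in mutants at 17 dpp, against 873, 431, 229, 20.1 and 345 in wild type. All wild-type arrays but 1 lay above all mutant arrays, and that one, replicate 4, lay within the mutants' range. The difference of −3.67 ± 0.90 passed (limma adjusted p = 0.0194), but the call was lost without mutant replicate 1 (adjusted p = 0.0522), wild-type replicate 2 (0.0585) or wild-type replicate 5 (0.0618) of 17 dpp. At 14 dpp the same probe set gave 15.8, 5.31, 32.5, 38.3 and 24.7 in mutants and 11.5, 27.4 and 66.7 in wild type, and the groups overlapped.

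The other Adam1b probe sets did not show the same picture. The second, 1439700_at, gave 1.80, 20.4, 159, 9.40 and 21.7 in mutants and 48.7, 192, 169.8, 194 and 243 in wild type at 17 dpp, a difference of −3.19 ± 0.96 that missed the threshold (limma adjusted p = 0.0619). The last, 1454317_at, gave 40.3, 20.0, 48.4, 112 and 12.6 in mutants and 17.6, 11.5, 24.2, 71.9 and 11.1 in wild type, with a positive estimate of 0.76 ± 0.65. It was low in both genotypes and its groups overlapped.

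Adam3, also called cyritestin (chromosome 8), is needed in mice for sperm to enter the oviduct. It gave 5.22, 21.9, 18.4, 69.0 and 12.2 in mutants at 17 dpp, against 3609, 770.4, 809, 327 and 3099.8 in wild type. At 14 dpp it gave 6.47, 7.74, 10.9, 59.5 and 16.4 in mutants, against 64.9, 98.9 and 15.5 in wild type. The groups were apart at 17 dpp (−6.05 ± 0.81, limma adjusted p = 7.37e-05), whereas at 14 dpp wild-type replicate 3 lay among the mutants and the difference did not pass (−1.73 ± 0.94).

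Adam5, an ADAM of the sperm surface in mice (chromosome 8), gave 23.6, 43.8, 37.8, 55.4 and 89.4 in mutants at 17 dpp, against 6005, 5965, 6051, 2785 and 11890.1 in wild type. At 14 dpp its signals were 36.8, 25.7, 4.44, 79.1 and 65.2 in mutants, against 152, 414 and 204 in wild type. No mutant array reached a wild-type array at either age. The difference passed at 17 dpp (−7.02 ± 0.63, limma adjusted p = 7.92e-07) and missed at 14 dpp after adjustment over all probe sets (−3.0 ± 0.73, unadjusted p = 6.29e-04, adjusted p = 0.195).

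Adam32, a testis ADAM without a working protease site (chromosome 8), gave 12.2, 22.2, 87.8, 85.9 and 1.74 in mutants at 17 dpp, against 4363, 2302, 1949.7, 588 and 6147 in wild type. At 14 dpp the signals were 2.03, 20.9, 9.499, 62.7 and 5.56 in mutants, against 58.5, 145 and 40.3 in wild type. Groups were separate at 17 dpp (−6.84 ± 1.02, limma adjusted p = 2.40e-04). At 14 dpp mutant replicate 4 lay above 2 of the 3 wild-type arrays, and the estimate of −2.71 ± 1.18 did not pass.

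Adam18, a testis ADAM likewise without protease activity (chromosome 8), gave 4.05, 16.7, 103, 15.6 and 20.2 in mutants at 17 dpp, against 1428, 255, 238, 62.6 and 329 in wild type. One pair of arrays crossed: mutant replicate 3 lay above wild-type replicate 4. The difference was −3.93 ± 0.77 (limma adjusted p = 0.00336). At 14 dpp it gave 31.96, 47.1, 95.9, 88.3 and 49.8 in mutants and 29.9, 34.6 and 42.1 in wild type, all near the arrays' 40th percentiles, and the estimate of 0.71 ± 0.89 did not pass.

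Adam24, known as testase 1, is a sperm surface protease that limits entry of extra sperm in mice (chromosome 8). It gave 6.59, 3.08, 19.0, 18.4 and 10.2 in mutants and 5.25, 4.90, 4.58, 26.8 and 72.6 in wild type at 17 dpp, and 3.54 to 59.5 over all 14 dpp arrays. Its signal passed the 40th percentile on 1 of the 18 arrays, so it was not tested and no difference was measurable.

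Of the 8 tested probe sets of the testis ADAM genes, 6 were called lower and 0 higher in mutants at 17 dpp, where 3.86% of all 34764 tested probe sets were called lower and 1.48% higher, 5.33% in either direction. At 14 dpp 1 of 8 was called lower, where the background was 0.196% lower and 0% higher (696 probe sets had an unadjusted p under 0.05). All mutant arrays lay below all wild-type arrays for 4 of the 8 at 17 dpp (background 3.31%) and for 2 of 8 at 14 dpp (background 3.08%). The reverse, all mutant arrays above all wild-type arrays, held for 0 of the 8 at either age (background 1.54% at 17 dpp and 2.37% at 14 dpp). The median log2 difference of the 8 was −4.99 at 17 dpp and −1.46 at 14 dpp, beside 0.25 and 0.06 over all tested probe sets. Without the wild-type arrays of 17 dpp, 5 of the 8 would have failed the filter, so these probe sets entered the test through the group in which they are high and the counts are a description.

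Because mutant signals lay near background, the size of these differences depends on how low signals are treated. With 32 added to every signal before the logarithm, the Adam2 difference was −7.00 at 17 dpp and −4.22 at 14 dpp. Over all 33 alternatives of the fit, the 17 dpp estimates ran from −8.11 to −6.83 for Adam2 and −7.55 to −6.17 for Adam5. They ran from −8.05 to −5.21 for Adam32, −8.40 to −4.51 for Adam3, −7.44 to −2.54 for Adam18 and −6.49 to −2.46 for Adam1b. Within array set 1 at 17 dpp, where 2 mutant arrays faced 1 wild-type array, the log2 differences were −7.32 for Adam2, −7.55 for Adam5, −8.05 for Adam32, −8.40 for Adam3, −7.44 for Adam18 and −6.49 for Adam1b. Within set 3 they were −7.62 for Adam2, −6.68 for Adam5, −6.41 for Adam32, −5.16 for Adam3, −2.56 for Adam18 and −2.61 for Adam1b. Adam1b alone missed the threshold in set 3 (limma adjusted p = 0.0852), and the other 5 genes passed in both sets. The Adam2 difference at 14 dpp was −4.73 in set 1 (adjusted p = 0.0165) and −6.40 in set 2 (0.0133), past the threshold in each.

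**Figure D2:**
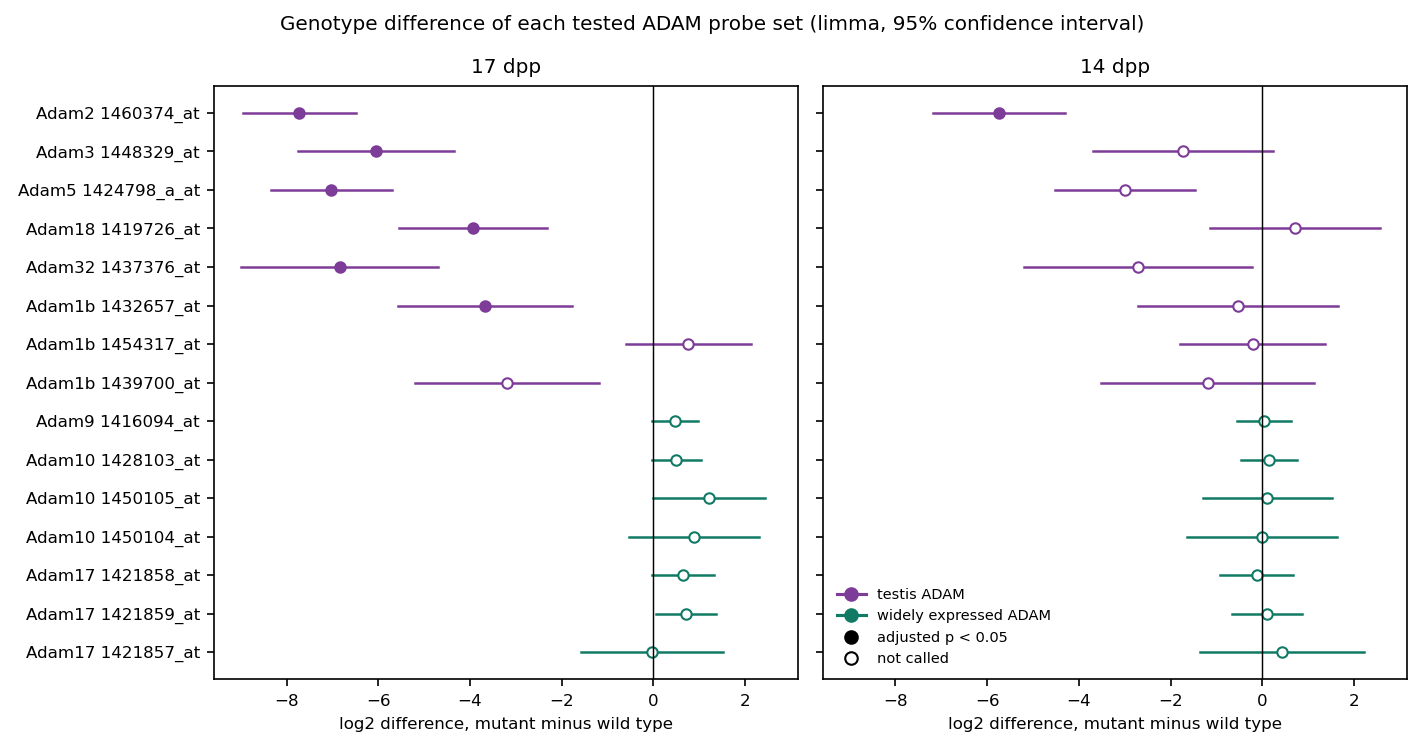
Log2 difference, mutant minus wild type, of the 15 tested probe sets, with 17 dpp in the left panel and 14 dpp in the right; bars are 95% confidence intervals and filled points passed the adjusted p of 0.05. The 6 filled points at 17 dpp run from −7.72 for Adam2 to −3.67 for Adam1b, and the single filled point at 14 dpp is Adam2.

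The change between ages asks whether the genotype difference itself grew. The interaction estimate, the difference at 17 dpp minus that at 14 dpp, was negative for all 6 genes: −4.64 ± 1.17 for Adam18 (limma adjusted p = 0.158), −4.33 ± 1.24 for Adam3 (0.277), −4.14 ± 1.56 for Adam32 (0.661), −4.02 ± 0.96 for Adam5 (0.120), −3.15 ± 1.38 for Adam1b (0.823) and −1.98 ± 0.90 for Adam2 (0.855). Adam5 passed without mutant 14 dpp replicate 3 (0.0271), and Adam18 without mutant 17 dpp replicate 3 (0.0461) or wild-type 17 dpp replicate 4 (0.0495). In the reported fit over all arrays none passed, while 0.204% of all probe sets did. Of the 8 testis ADAM probe sets, 6 had an unadjusted limma p under 0.05, against 5.61% of all. As 5 of the 8 passed the filter only through the wild-type arrays of 17 dpp, that count is a description. With 32 added to every signal, 4 genes passed: Adam5 (−4.27, adjusted p = 0.00239), Adam32 (−4.09, 0.0172), Adam2 (−2.78, 0.0259) and Adam3 (−3.73, 0.0318). The interaction calls therefore depend on how signals near background are treated.

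In wild type, all 6 genes rose between 14 and 17 dpp on the main probe set of each. Geometric mean signals were 12325 at 17 dpp and 954 at 14 dpp for Adam2, 5905 and 234 for Adam5, and 1179 and 46.3 for Adam3. They were 2344 at 17 dpp and 69.9 at 14 dpp for Adam32, 282 and 35.2 for Adam18, and 227 and 27.6 for Adam1b. The log2 rises were 5.07 ± 1.18 for Adam32 (limma adjusted p = 0.0110), 4.67 ± 0.94 for Adam3 (0.00505), 4.65 ± 0.73 for Adam5 (9.05e-04), 3.69 ± 0.68 for Adam2 (0.00285), 3.04 ± 1.04 for Adam1b (0.0455) and 3.004 ± 0.89 for Adam18 (0.0268). The other Adam1b probe sets differed and did not pass, with 2.67 ± 1.10 on 1439700_at (limma adjusted p = 0.0870) and −1.71 ± 0.75 on 1454317_at (0.106). Among all probe sets 4.86% were called higher and 16.5% lower in this comparison, 21.4% in either direction. With array set as a block, Adam18 (3.25, adjusted p = 0.0949) and Adam1b (3.73, 0.07998) lost their calls. The Adam1b call was lost under 17 of 31 alternatives, among them leaving out wild-type 14 dpp replicate 1 (adjusted p = 0.183). Without that array or wild-type 14 dpp replicate 3, Adam32 (0.0551 and 0.0586) and Adam18 (0.0923 and 0.0762) missed as well, and Adam18 also without wild-type 14 dpp replicate 2 (0.0743) or 17 dpp replicate 5 (0.0575). The comparison shares the wild-type 17 dpp arrays with the genotype comparison at that age. Of the 8 tested testis ADAM probe sets, 5 passed the filter only through those arrays, so these calls are a description.

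In mutants none of the members' probe sets passed between the ages in the reported fit, where 0.423% of all probe sets were called higher and 1.5% lower. Geometric means in mutants were 58.5 at 17 dpp and 17.9 at 14 dpp for Adam2 (log2 difference 1.71 ± 0.59, limma adjusted p = 0.0900), and 45.4 and 29.3 for Adam5. They were 18.6 at 17 dpp and 57.6 at 14 dpp for Adam18 (−1.63 ± 0.77, adjusted p = 0.165). The main Adam10 probe set (0.73, adjusted p = 0.0898) passed as higher at 17 dpp without mutant 17 dpp replicate 1 (0.0228) or 2 (0.0442), without wild-type 17 dpp replicate 1 (0.0404), with a common median (0.0271) and with array weights (8.63e-04). Adam17 passed as lower without mutant 17 dpp replicate 2 (−0.97, 0.0465) and with array weights (−1.05, 0.0027), and Adam9 as higher without set 3 (0.67, 0.0467) and with array weights (0.67, 0.0248). Array set and age overlap in part, since set 2 holds only 14 dpp and set 3 only 17 dpp. Within set 1 the wild-type rise was 2.79 for Adam2 (adjusted p = 0.177), 4.58 for Adam5 (0.0740), 5.49 for Adam3 (0.0406), 5.47 for Adam18 (0.0244), 5.57 for Adam32 (0.199) and 5.62 for Adam1b (0.0661), from 1 array at 17 dpp and 2 at 14 dpp.

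The main probe sets of the widely expressed ADAMs lay above the 40th percentile on all 18 arrays. Adam9, a membrane protease (chromosome 8), gave 3466, 2984, 2709, 1589 and 4895 in mutants at 17 dpp, against 2027, 2569, 2002, 1872 and 2193 in wild type. The groups overlapped through mutant replicate 4, and the difference of 0.47 ± 0.24 (95% interval −0.04 to 0.98, limma adjusted p = 0.299) did not pass. At 14 dpp it gave 2423, 2175, 1995, 1929.6 and 1684 in mutants and 2101, 2289.6 and 1584 in wild type, and the arrays were intermixed (0.04 ± 0.28, 95% interval −0.55 to 0.63).

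Adam10, the protease that cleaves Notch receptors at the cell surface (chromosome 9), gave 3743, 5034, 7444, 9045 and 8719 in mutants at 17 dpp, against 2641, 5211, 5580.3, 5826 and 4381 in wild type, on the probe set with the highest mean signal. Over all arrays the groups overlapped and the difference of 0.50 ± 0.25 did not pass (limma adjusted p = 0.286). Within each array set they did not overlap. In set 3 the 3 mutant arrays lay at 7444 or more and the 4 wild-type arrays at 5826 or less. In set 1 the 2 mutant arrays lay above the 1 wild-type array. The share of all probe sets that lie apart in this way within the sets was not counted, so this separation only describes these few arrays. A block for array set gave 0.69 (adjusted p = 4.72e-04), in a fit that called 10.8% of all probe sets higher and 8.05% lower. Each array scaled to a common median gave 0.36 (adjusted p = 0.559).

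At 14 dpp that Adam10 probe set gave 4044, 4105, 3996, 3626 and 3696 in mutants and 3443, 3903 and 3259 in wild type, overlapping groups with a difference of 0.14 ± 0.29. Of its other probe sets, 1450105_at gave 1099.9, 1218, 156, 215 and 316 in mutants and 781, 201, 140.2, 123 and 79.5 in wild type at 17 dpp (1.21 ± 0.58, limma adjusted p = 0.263). On it the arrays of set 1 stood far above those of set 3 in both genotypes. Another, 1450104_at, had an estimate of 0.88 ± 0.67, with 2 of 5 mutant and 1 of 5 wild-type arrays of 17 dpp above their 40th percentile. The last, 1460083_at, was above the 40th percentile on 0 arrays and was not tested.

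Adam17, the protease that releases tumour necrosis factor (chromosome 12), gave 1404, 1528, 478, 621 and 857 in mutants at 17 dpp, against 1089, 538, 400.2, 668 and 370.4 in wild type. The groups overlapped, with high values on array set 1 in both genotypes, and the difference of 0.65 ± 0.32 did not pass (95% interval −0.03 to 1.33, limma adjusted p = 0.284). At 14 dpp it gave 1559, 1388, 1560.4, 1462 and 1634 in mutants and 1783, 1635 and 1561 in wild type (−0.13 ± 0.37, 95% interval −0.91 to 0.66), and the groups overlapped there too. Its probe set 1421859_at gave a like estimate of 0.71 ± 0.31 at 17 dpp (adjusted p = 0.216), while 1421857_at gave −0.03.

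Of the 7 tested probe sets of Adam9, Adam10 and Adam17, limma called 0 at 17 dpp and 0 at 14 dpp, with 1 and 0 at an unadjusted p under 0.05. Over all probe sets 5.33% were called at 17 dpp and 19.4% had an unadjusted p under 0.05, so a count of 0 or 1 in 7 does not stand apart from the background. The members' median log2 difference was 0.65 at 17 dpp and 0.10 at 14 dpp. With each array scaled to a common median the 17 dpp estimates were 0.33 for Adam9, 0.36 for Adam10 and 0.50 for Adam17. In the reported fit no 95% interval of the main Adam9, Adam10 or Adam17 probe set at 17 dpp reached below −0.04, whereas those of the 6 testis genes ran from −8.99 to −1.78.

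**Figure D3:**
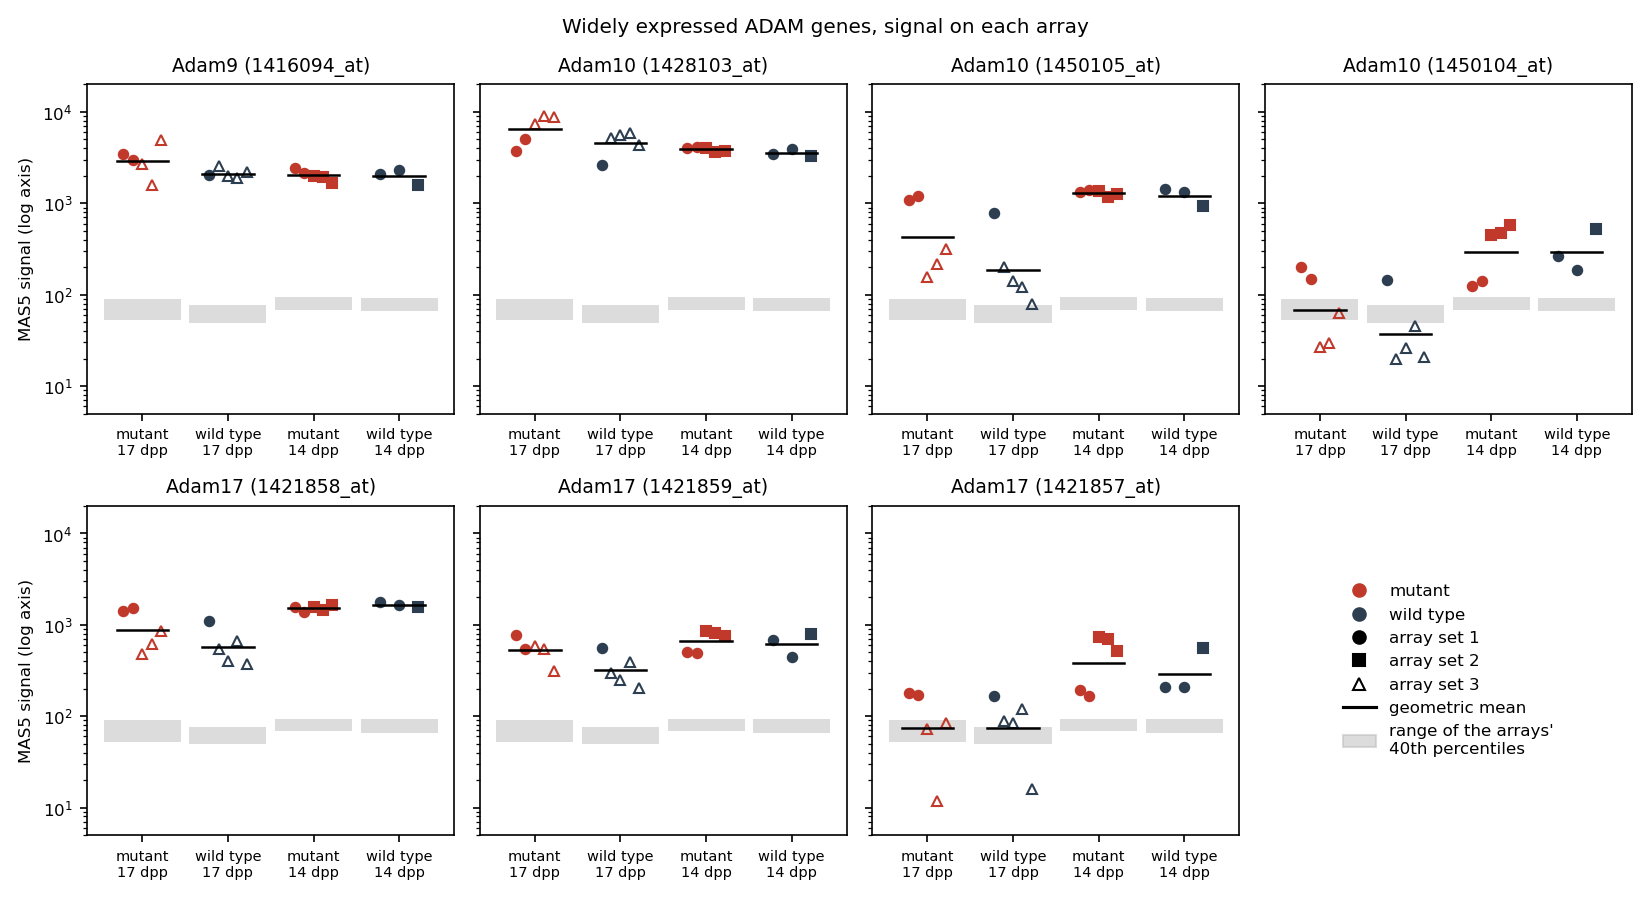
Signal of the 7 tested probe sets of Adam9, Adam10 and Adam17 (log axis) on each array, drawn as for the testis ADAMs, with mutants left of wild type and 17 dpp left of 14 dpp. Mutant and wild-type arrays overlap in every panel, and on 1450105_at the arrays of set 1 stand above those of set 3 at 17 dpp.

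Between 17 and 14 dpp in wild type, 3 of these 7 probe sets were called lower at 17 dpp, where 16.5% of all probe sets were: Adam17 1421858_at (−1.55 ± 0.37, limma adjusted p = 0.0127), Adam10 1450105_at (−2.71 ± 0.67, 0.0137) and Adam10 1450104_at (−3.001 ± 0.78, 0.0169). On 1450104_at 1 of 5 wild-type arrays of 17 dpp passed its 40th percentile, so signals near background limit the size of that fall. Adam9 (0.11) and the main Adam10 probe set (0.37) did not pass. A block for array set gave −0.59 for Adam17 (adjusted p = 0.188) and −0.82 for Adam10 1450105_at (0.153), so both calls were lost with it, and that of Adam17 also without wild-type 14 dpp replicate 1 (0.0614).

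RefSeq promoter windows, from 250 bases before to 50 after the gene start (GRCm38.p6), were matched for 3 of the 10 genes. They are shown because 1 of the 3, Adam1b, was lower in mutants at 17 dpp on its main probe set, and Adam10 and Adam17 were not. Capitals mark AACNG, the core of the sequence that MYB factors bind, where it was found on the strand printed, 5′ to 3′. The windows are chr5:121503386-121503685 (minus strand) for Adam1b, chr9:70678732-70679031 (plus strand) for Adam10 and chr12:21373583-21373882 (minus strand) for Adam17.
Adam1b: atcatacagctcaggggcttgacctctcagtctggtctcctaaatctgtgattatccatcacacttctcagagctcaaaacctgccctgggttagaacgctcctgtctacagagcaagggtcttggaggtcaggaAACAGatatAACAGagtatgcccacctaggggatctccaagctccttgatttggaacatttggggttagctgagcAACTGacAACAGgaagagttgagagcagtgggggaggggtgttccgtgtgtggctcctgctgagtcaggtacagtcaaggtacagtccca
Adam10: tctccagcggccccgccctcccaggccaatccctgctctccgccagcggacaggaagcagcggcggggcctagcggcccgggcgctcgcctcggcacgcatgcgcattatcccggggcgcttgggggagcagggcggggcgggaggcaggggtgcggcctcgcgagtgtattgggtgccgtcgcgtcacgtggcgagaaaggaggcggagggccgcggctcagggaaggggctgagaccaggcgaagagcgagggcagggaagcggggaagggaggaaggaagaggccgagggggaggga
Adam17: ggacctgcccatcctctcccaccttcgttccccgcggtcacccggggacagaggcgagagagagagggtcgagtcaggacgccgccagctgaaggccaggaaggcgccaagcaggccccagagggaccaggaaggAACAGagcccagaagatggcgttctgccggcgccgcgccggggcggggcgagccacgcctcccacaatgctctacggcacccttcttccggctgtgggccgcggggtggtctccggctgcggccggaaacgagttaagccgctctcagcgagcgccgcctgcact
Searched on both strands, AACNG occurred 4 times in the Adam1b window (at −115, −106, −40 and −33 from the gene start), 0 times in that of Adam10 and 1 time in that of Adam17. Over 32851 promoters of the same length, 80.3% held at least 1, with a median of 2. The Adam1b window had a GC content of 51.0% and 2 CpG dinucleotides, against 73.3% and 32 for Adam10 and 70.0% and 30 for Adam17. The cAMP response element TGACGTCA was in none of the 3 windows and in 1.79% of all promoters, and its TGACG part was found 1 time, in the Adam10 window, and in 20.8% of all. A match is a description of the letters and shows no binding.

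Adam18, Adam3, Adam5, Adam32 and Adam9 lie next to each other on chromosome 8 in that order, in the annotation of GRCm38.p6, which allowed neighbours to be set side by side. The 4 testis ADAM genes of the cluster were lower in mutants at 17 dpp, and Adam9, directly beside Adam32, was not. Of 10 flanking genes within 5 places on either side, 7 were tested and 0 were called at either age. Over all probe sets 5.33% were called at 17 dpp and 0.196% at 14 dpp, so 0 in 7 does not stand apart from the background. Log2 differences at 17 dpp were 0.79 for Sfrp1, 1.52 for Zmat4 and 0.82 for Tcim on one side, and −0.11 for Tm2d2, 0.24 for Htra4, 0.63 for Plekha2 and 0.25 for Tacc1 on the other. Ido2 and Ido1, between Tcim and Adam18, did not pass the filter. Adam2 and the main probe set of Adam1b, on chromosomes 14 and 5, were lower in mutants as well.

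**Figure D4:**
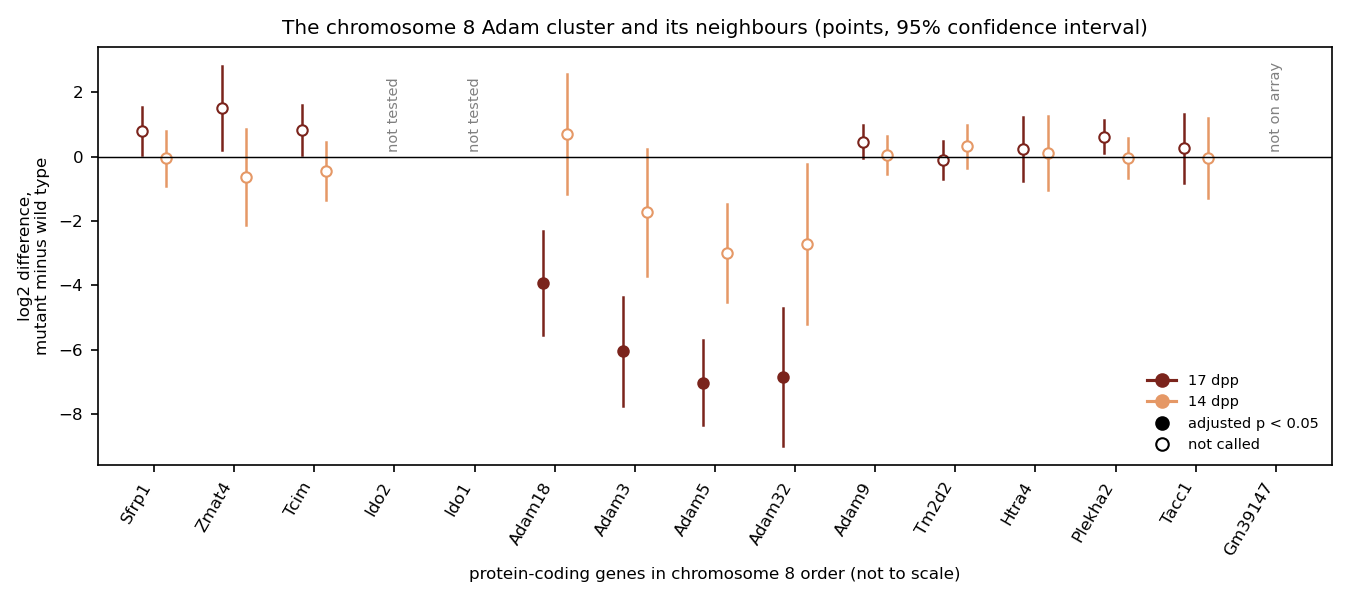
Log2 difference, mutant minus wild type, of the 12 tested among 15 genes in their order along chromosome 8 (equal steps, not distances; Ido2, Ido1 and Gm39147 have no value), dark red at 17 dpp and orange at 14 dpp. At 17 dpp Adam18, Adam3, Adam5 and Adam32 lie between −7.02 and −3.93, while Adam9 is at 0.47 and the tested flanking genes lie between −0.11 and 1.52.

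Of 16 further ADAM genes of testis or epididymis, 10 were on the array, 5 were tested and 0 passed at either age. Their log2 differences at 17 dpp ran from −1.37 for Adam28 to 0.85 for Adam21. Of 9 further ADAMs of somatic tissues 0 passed, with a median of 0.60 at 17 dpp (over all genes 0.26) and 1.44 ± 0.47 for Adam12 (limma adjusted p = 0.0911). Over all probe sets 5.33% were called at 17 dpp and 0.196% at 14 dpp, so 0 calls in lists this short do not stand apart from the background.

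ADAM proteins of the sperm need helpers for folding and transport, and a list of 16 such genes had 13 tested. At 17 dpp 4 were lower in mutants and 0 higher (3.86% lower and 1.48% higher over all probe sets), with a list median of −0.37. These were Cmtm2b and Cmtm2a, membrane proteins needed for ADAM3 on mouse sperm, Lypd4, a lipid-anchored sperm protein, and Clgn, the calmegin chaperone of the fertilin dimer. Geometric means were 23.4 in mutants and 3366 in wild type for Cmtm2b (−7.17 ± 0.85, limma adjusted p = 1.96e-05), and 37.7 in mutants and 2649 in wild type for Cmtm2a (−6.13 ± 0.63, 3.26e-06). They were 42.2 in mutants and 1106 in wild type for Lypd4 (−4.71 ± 0.79, 7.88e-04), and 220 in mutants and 3827 in wild type for Clgn (−4.12 ± 0.30, 1.02e-07).

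Clgn was also lower in mutants at 14 dpp, with 260 in mutants and 1202 in wild type (−2.21 ± 0.35, limma adjusted p = 0.00541), the 1 call of the list at that age. That call was lost without wild-type replicate 2 (adjusted p = 0.09797) and within array set 2 (0.288). The other 9 tested helpers did not pass at 17 dpp. Tex101 (0.59), Ly6k (−0.25), Calr3 (−0.37), Ace (0.27) and Tpst2 (−0.02) are each needed in mice for ADAM3 or for oviduct entry, and Prss55 (−0.38), Pgap1 (0.41), Pcsk4 (−0.56) and Rnase10 (−0.22) had small estimates too. Signals of these 9 genes are not given here, and a fall from a signal near background could not be measured. Rnase10 is also on the list of epididymis markers. Their summed signal at 17 dpp was only 118 to 344 in mutants and 171 to 319 in wild type. Pdilt and Prss37 did not pass the filter.

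A list of 13 other sperm proteins of adhesion and fusion had 6 tested, of which 3 were lower in mutants at 17 dpp (3.86% over all probe sets) and 2 at 14 dpp (0.196%), with medians of −1.61 and −0.99. Crisp2, found in the acrosome and the tail, had differences of −7.04 ± 0.73 at 17 dpp (limma adjusted p = 3.85e-06) and −4.84 ± 0.84 at 14 dpp (0.0124). Spesp1, an equatorial segment protein, averaged 250 in mutants and 5089 in wild type at 17 dpp (−4.35 ± 0.30, adjusted p = 4.81e-08) and differed by −1.91 ± 0.35 at 14 dpp (0.0202). Acr, the acrosomal protease acrosin, averaged 87.0 in mutants and 549 in wild type at 17 dpp (−2.66 ± 0.47, adjusted p = 0.00128). Spaca6 (0.72), Dcst2 (0.03) and Zp3r (−0.57) did not pass, and Izumo1, Dcst1, Zan, Spam1 and Hyal5 were not tested. The 14 dpp calls of Crisp2 and Spesp1 were lost without wild-type replicate 2 (limma adjusted p = 0.168 and 0.256) or wild-type replicate 3 (0.0927 and 0.136). That of Spesp1 was also lost without mutant replicate 2 (0.0592), 4 (0.0545) or 5 (0.0649) and within array set 1 (0.300). The Crisp2 call was lost with 14 dpp fitted alone (0.0911). Both were lost with the unmoderated test at a threshold of 0.025 (0.0722 for Crisp2 and 0.0378 for Spesp1). Within array set 2, which held 1 wild-type array, the differences were −3.87 for Crisp2 and −2.12 for Spesp1.

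Partners of ADAM10 and ADAM17, such as the tetraspanins that carry ADAM10 and the inhibitors of both, gave 14 tested genes and 0 calls at either age. With 5.33% of all probe sets called at 17 dpp and 0.196% at 14 dpp, that count does not stand apart from the background. All 14 estimates at 17 dpp were positive, from 0.17 to 1.77 for Tspan14, with a median of 0.61 beside 0.26 over all genes. At 14 dpp the median was 0.07.

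**Figure D5:**
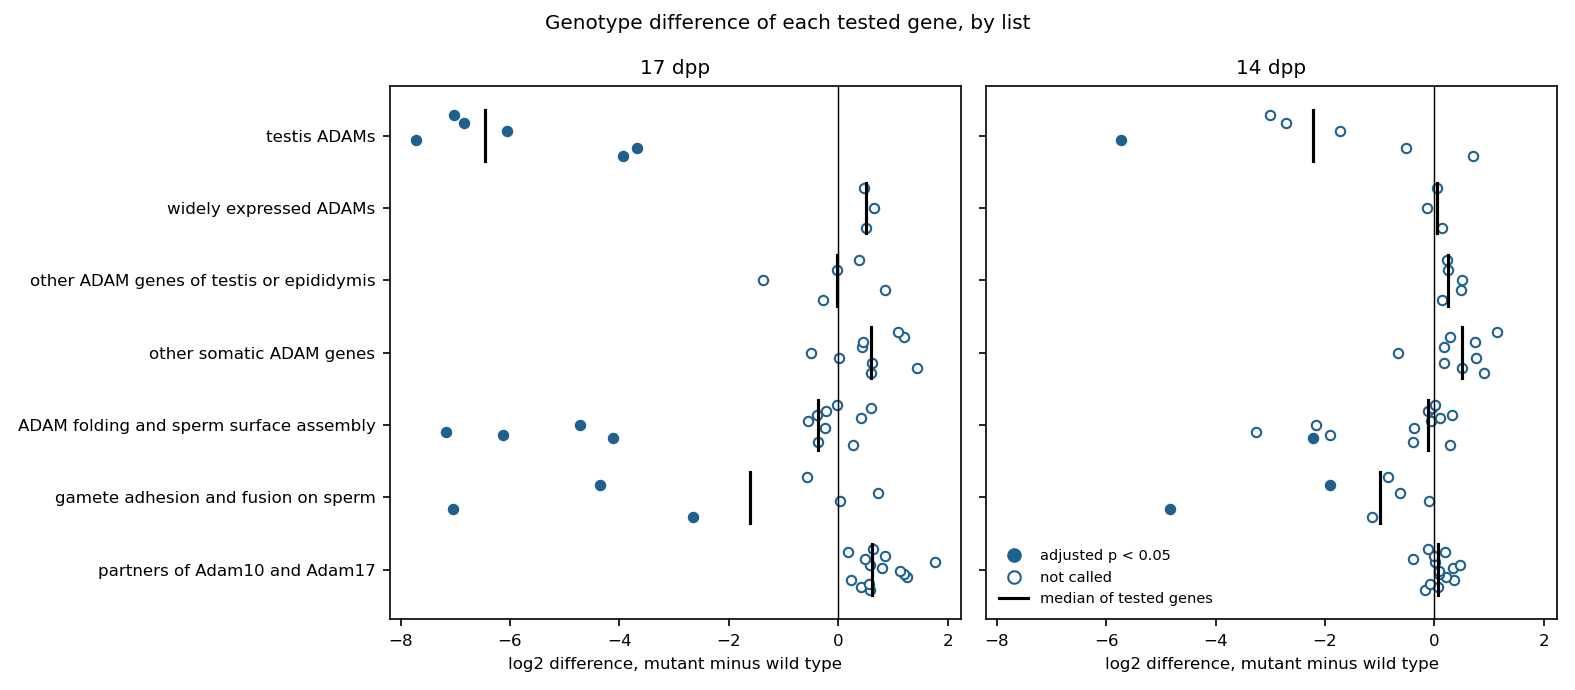
Log2 difference, mutant minus wild type, of each tested gene in 7 lists, with 17 dpp left of 14 dpp; each point is a gene and the black bar is the list's median. The testis ADAM genes have a median of −6.45 at 17 dpp and −2.22 at 14 dpp, the widely expressed ADAMs 0.50 and 0.04.

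Markers of pachytene spermatocytes were lower in mutants too, and their correlations with the testis ADAM genes are not given here. The 6 such markers tested were Piwil1, Ldhc, Hspa2, Pgk2, Tbpl1 and Clgn, which is also on the list of the helpers. Of these, 6 were lower in mutants at 17 dpp (median −4.89, background 3.86%) and 4 at 14 dpp (median −2.34, background 0.196%). Their summed signal at 14 dpp was 2854 to 4019 in mutants and 10352 to 14790 in wild type. Of leptotene to zygotene markers, Meiob was lower (−1.03, limma adjusted p = 0.0429) and Dmc1 higher (0.99, adjusted p = 0.0475) at 17 dpp, and the sums overlapped, at 20249 to 56532 in mutants and 22202 to 70788 in wild type. Of 5 tested markers of round spermatids 0 were called, with sums of 471 to 1733 in mutants and 354 to 832 in wild type at 17 dpp. Macrophage markers summed to 5101 to 7696 in mutants and 1952 to 4107 in wild type at 17 dpp, with Csf1r higher (0.90, adjusted p = 0.0375), beside the positive estimates of the widely expressed ADAMs. Other somatic and early germ cell lists had no called gene at 17 dpp, and their medians were 1.004 for Leydig cells, 0.96 for spermatogonia, 0.68 for peritubular myoid cells, 0.45 for Sertoli cells and 0.41 for endothelial cells, against 0.26 over all genes and 1.03 for macrophages. Over all probe sets 5.33% were called at 17 dpp, so marker lists this short with no call do not stand apart from the background. The part of any of these cell types in the ADAM results was not tested.

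Across the 18 arrays the log2 signals of the 6 testis genes correlated with each other at 0.581 (Adam2 with Adam18) to 0.942 (Adam3 with Adam32), with a median of 0.804 over 15 pairs. Their correlations with Adam9, Adam10 and Adam17 ran from −0.641 to −0.0423 over 18 pairs. The genes with the pattern most like that of Adam2 were Spata4 (Pearson r = 0.976), Lrrc34 (0.971) and Dynlrb2 (0.970). Most like Adam5 were Mdh1b (0.975), Ttc30a2 (0.962) and Gm4871 (0.960), and most like Adam3 were Asrgl1 (0.958), 4930544G11Rik (0.956) and Cmtm2a (0.952). For Adam32 they were Ankrd54 (0.952), Sphkap (0.951) and Gk2 (0.947). For Adam1b they were Stamos (0.917), 4930452G13Rik (0.905) and Tcp11 (0.904), and for Adam18 Cfap221 (0.891), 4930452G13Rik (0.877) and 1700029F12Rik (0.871). These correlations describe arrays that share genotype, age and array set, and carry no test.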

How the data were processed

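Total RNA of homogenised testes was labelled and hybridised to Affymetrix mouse genome arrays. The deposited values are intensity (MAS5 signal on a linear scale, per the submitters' processing notes), and the authors processed the arrays in Affymetrix GCOS software, as the design text states. The trimmed mean (2% off each end) was near 500 on 11 arrays and near 395 on the 7 arrays of set 3, for a reason not given in the sources used here. The number of arrays, not depth, limits the precision.

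The log2 of the signal, with no added normalization, was fitted in limma 3.58.1 (R 4.3.3) as 4 group means over 18 arrays, with trended eBayes moderation and 14 residual degrees of freedom. P-values are two-sided and were adjusted by Benjamini-Hochberg over 34764 probe sets (threshold 0.05). Of 45101 probe sets, 64 controls were left out, and testing needed a signal over the 40th percentile of the same array on 3 or more arrays. Annotation gave 34945 probe sets 1 gene, 932 several and 9160 none. A gene was represented by its tested probe set with the highest mean signal, for 15307 genes in all (15207 found by Entrez ID in the reference table). Beyond that choice, signals of different probe sets were not compared as levels. Each ± is a limma standard error, and geometric means are over arrays. The fit was tested on simulated data.

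Array sets were bounded at β-actin ratios of 1.9 and 10. The members, lists, array sets and tests were chosen with earlier results of these data known. Named genes were all members, every tested gene of the lists that passed a genotype comparison at 14 or 17 dpp, and the neighbours on chromosome 8. For each called testis ADAM the 3 genes with the highest correlation were named too. Some genes of the lists that did not pass are also given, such as those with the lowest or highest estimate of a list. The design text speaks of several mice of each genotype but ties no array to an animal, so p-values measure the spread between arrays, which may be technical. Same-numbered mutant and wild-type arrays deviated from their group means with correlations of 0.283, 0.355 and 0.385 at 14 dpp, where each pair lay in 1 array set, and of −0.227 to 0.777 at 17 dpp, so the numbers were not treated as pairs. Alternatives were another normalization, other filters, a pseudocount of 32, array weights, an unmoderated test, the array set as a block or alone, the replicate number as a block, and leaving out each array in turn.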

Additional observations from a re-analysis of the deposited data

How the results depend on the processing

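Over 33 alternatives the testis ADAM probe sets called lower at 17 dpp numbered 5 to 7, beside 6 in the reported fit. At 14 dpp the count of 1 was kept under 31 of 33, and was 4 with array weights and 2 with a pseudocount of 32 plus the array set block, an alternative chosen after seeing the data. The interaction count of 0 became 4 with a pseudocount of 32, 5 with that and the block, 1 without set 3, 1 with array weights, and 0 to 1 when single arrays were left out (Adam5 without mutant 14 dpp replicate 3, and Adam18 without mutant 17 dpp replicate 3 or wild-type 17 dpp replicate 4). The wild-type age count of 6 was 2 within set 1 and 3 to 7 without single arrays (3 without wild-type 14 dpp replicate 1 or 3). In mutants the age count of 0 became 1 with a common median (Adam2, higher at 17 dpp), 1 with array weights (Adam2) and 1 without set 3 (Adam18, lower). For the widely expressed ADAMs at 17 dpp the count of 0 became 2 with the block, 2 with the pseudocount and block, 1 within set 3, and 0 to 1 without single arrays (1 without wild-type replicate 1, on a probe set other than the main one), each time Adam10, higher in mutants.

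The Adam1b call at 17 dpp was also lost with that age fitted alone (adjusted p = 0.0814), array weights (0.124) and the unmoderated test (0.0330 at a threshold of 0.025). Some estimates that had not passed changed sign. At 14 dpp these were Adam3 within set 2 (0.51), Adam1b with array weights (0.33) and without single arrays (−1.16 to 0.11), and Adam9 with a common median (−0.076), array weights (−0.14) and without single arrays (−0.11 to 0.15). For age in wild type they were Adam9 within set 1 (−0.11) and without single arrays (−0.049 to 0.22), and Adam10 with the block (−0.44), the pseudocount and block (−0.44), within set 1 (−0.47) and without set 3 (−0.42). For age in mutants they were Adam3 without set 3 (−0.39) and without single arrays (−0.14 to 0.87), and Adam5 without single arrays (−0.049 to 0.99). Adam1b there gave 0.19 with quantile normalization, 0.22 with a common median, 1.04 with the block, 0.69 with the pseudocount and block, 0.082 within set 1, and −0.64 to 0.17 without single arrays. The cause was not tested.

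With the replicate number as a block, 7 testis ADAM probe sets were called at 17 dpp (1439700_at of Adam1b added, adjusted p = 0.0318) and 1 at 14 dpp, and the wild-type age call of Adam1b was lost (3.25, adjusted p = 0.0536). A common median moved the split of all probe sets at 17 dpp to 1341 lower and 114 higher, beside 1341 and 513, and that of age in wild type to 1315 lower and 2401 higher, beside 5750 and 1688. It moved the median of all probe sets at 17 dpp to 0.11, beside 0.25, and that of age in wild type to −0.08, beside −0.44. Signals near background limit the size of every testis ADAM difference, and 1 wild-type array in set 1 at 17 dpp limits the within-set values.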
